A study of Mus musculus with 6 samples.

Results

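Cytochrome P450 genes outside the classical corticosteroid pathway were followed in whole mouse adrenal glands. The members were all probe sets annotated with exactly 1 gene whose symbol has the P450 form (Cyp, a family number, a subfamily letter and a gene number), leaving out Cyp11a1, Cyp11b1, Cyp11b2 and Cyp21a1, the adrenal steroid enzymes. The rule gave 86 probe sets of 66 genes, among 44935 probe sets and 18163 genes in all, and left out 7 probe sets of the 4 adrenal steroid genes. The rule used names only and no measured value. It also kept Cyp17a1, which is itself a steroid-synthesis enzyme, so the genes are described here as P450 genes chosen by name and Cyp17a1 is treated apart. Cyp19a1 was not analysed here.

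All 6 arrays came from male mice, 3 months old, of mixed C57BL6x129Sv background that carried Per2Brdm1 together with Cry1-/-. Every animal thus had both clock mutations, which the labels describe as leaving the animals clock-deficient, and wild-type glands were not analysed here. After 2 weeks in a light-dark cycle the mice went into constant darkness, and glands were dissected 46 h or 54 h after lights off, with 3 arrays (replicates 1, B and C) at each time. The labels name no animal for an array, so the spread behind each p-value may be technical, and a difference in collection between the times cannot be told apart from time. Values are the deposited probe-set intensities on a linear scale, with array medians of 204 to 217 units. Defining markers of the labelled tissue were present: 7 of 7 measured adrenal cortex markers and 7 of 7 measured adrenal medulla markers lay above the filter on low values.

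P450 enzymes use haem and electrons from a partner protein to put oxygen into a substrate. Families are numbered by sequence similarity: families 1 to 3 mainly oxidise drugs and other foreign compounds, family 4 oxidises the ends of fatty acids and eicosanoids, and higher families act on sterols, bile acids, retinoic acid or vitamin D. Many members of families 2 and 3 are best known from liver, where they are abundant and inducible, whereas the adrenal is known for its steroid-making P450s.

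The promoter sequences of 5 members are shown. Cyp3a11, Cyp2c50 and Cyp2c37 had the largest log2 differences. Cyp2c68 and Cyp2c70 share letters with Cyp3a11 and, like it, had 54 h arrays wholly above those of 46 h. Cyp2c65, Cyp3a16 and Cyp8b1 hold the same letters and are not shown, so the choice followed the measured values. The sequences are taken from RefSeq (assembly GRCm38.p6), which held promoter windows for 50 of the 66 genes. A window runs from 250 bases before to 50 bases after the annotated start. In the first 3 the capitals mark CAAAGTCCA, letters bound by the liver regulator HNF4. Cyp3a11 is given over the 250 bases before its start (chr5:145879855-145880104, minus strand), Cyp2c68 at chr19:39741140-39741208 (minus strand) and Cyp2c70 at chr19:40187312-40187380 (minus strand).
Cyp3a11: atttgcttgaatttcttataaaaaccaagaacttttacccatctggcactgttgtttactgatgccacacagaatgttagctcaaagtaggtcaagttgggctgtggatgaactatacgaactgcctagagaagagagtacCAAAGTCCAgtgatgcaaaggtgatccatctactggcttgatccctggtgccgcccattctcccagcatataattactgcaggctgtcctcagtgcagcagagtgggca
Cyp2c68: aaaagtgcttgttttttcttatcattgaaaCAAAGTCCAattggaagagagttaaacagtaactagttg
Cyp2c70: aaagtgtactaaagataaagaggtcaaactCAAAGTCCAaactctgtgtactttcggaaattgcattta

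The other pair, Cyp2c37 and Cyp2c50, is shown as an example of likeness within this subfamily. All 11 Cyp2c members lie on chromosome 19. The stretches are chr19:39992252-39992371 for Cyp2c37 and chr19:40089509-40089628 for Cyp2c50, both on the plus strand, and capitals mark the bases that differ. Of the 120 bases, 111 were the same and 9 differed (92.5% identity). The stretch was picked as the best-matching 120 bases in the best ungapped alignment of the 250 bases before each start. The identity therefore does not describe the whole windows or other pairs.
Cyp2c37: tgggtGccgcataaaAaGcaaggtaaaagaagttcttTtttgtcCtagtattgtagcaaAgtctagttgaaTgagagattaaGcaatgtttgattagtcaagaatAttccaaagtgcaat
Cyp2c50: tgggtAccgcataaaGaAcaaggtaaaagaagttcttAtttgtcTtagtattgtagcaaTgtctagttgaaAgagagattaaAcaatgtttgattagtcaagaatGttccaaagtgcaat

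About as many members lay above the filter as under it. A probe set was counted as expressed where the 6-array mean of log2(intensity + 16) exceeded the 40th percentile of all probe sets, which corresponds to 139 units. By this rule 43 of 86 member probe sets (50%) and 35 of 66 genes (53%) were expressed, against 60% of all probe sets, a share that the percentile itself sets. Just inside the rule a member probe set stood at 147 units and just outside it another stood at 139. At the stricter 60th percentile (319 units), 19 genes remained. Olfactory receptor genes, which adrenal tissue is not known to use, gave a rough guide to signal without expression: 17 of their 44 probe sets also passed the filter, and their 95th percentile was 469 units. Above that level stood 14 P450 genes. They were Cyp1b1, Cyp2c29, Cyp2d22, Cyp2e1 and Cyp2f2 among the enzymes of foreign compounds, Cyp4b1, Cyp4f13, Cyp4f14, Cyp4f16 and Cyp4v3 among those of fatty acids, Cyp27a1 and Cyp39a1 among those of sterols, Cyp26b1 for retinoic acid, and Cyp20a1. A probe set's brightness depends on its probes, so the levels of different genes are not ranked here.

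Cyp3a11, the main drug-oxidising P450 of the 3A subfamily in mouse liver, was the only member past the adjusted test. Its intensity was 364, 223 and 308 units on replicates 1, B and C at 46 h and 653, 693 and 659 at 54 h. Every 54 h array stood above every 46 h array, and the 54 h arrays lay close together while 46 h replicate B was lowest. The log2 change was 1.15 ± 0.16 (SE; 3 arrays each) with a limma Benjamini-Hochberg adjusted p of 0.0424 over the 26961 probe sets tested. The 1 call stood among 43 member probe sets tested, where 0.0593% of all probe sets tested were called higher and 0.0556% lower. Without 54h replicate C the limma adjusted p of Cyp3a11 was 0.214, without 46h replicate 1 it was 0.103, without 46h replicate C 0.0784, without 54h replicate B 0.0579 and without 54h replicate 1 0.0551. The call was kept only without 46h replicate B (limma adjusted p = 0.0436). The log2 change stayed between 0.96 and 1.30 in these 6 fits. Without the filter on low values the limma adjusted p was 0.0518, and without the intensity trend of the model it was 0.141.

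Over all 86 member probe sets, filtered or not, the arrays of the times did not overlap in 14 cases with 54 h higher (16.3%) and in 2 with 54 h lower (2.33%). Among all probe sets those shares were 6.52% and 7.72%. A log2 change above 0 was seen in 52 of the 86 (60.5%), against 46.7% of all probe sets. The median log2 change was 0.04 over all member probe sets and 0.05 over the tested member genes, beside -0.02 over all 13780 genes tested. The middle of the P450 group thus lay close to that of all genes, and the largest values belonged to Cyp3a11 and Cyp2c50. Among those tested, 8 of 43 member probe sets (18.6%) were higher at an unadjusted limma p of 0.05 and 2 (4.65%) lower, where 4.34% and 5.75% of all probe sets tested were higher and lower. Of the 8, Cyp2c50 and Cyp2c70 had a 46 h mean under the filter and were tested only through their 54 h arrays, so this count is a description; the other 6 were above it at 46 h as well. Only Cyp2c29 and Cyp2f2 of the 8 had a mean above the olfactory receptor level. With each array left out in turn, 6 to 8 member probe sets were higher and 0 to 3 lower.

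**Figure D1:**
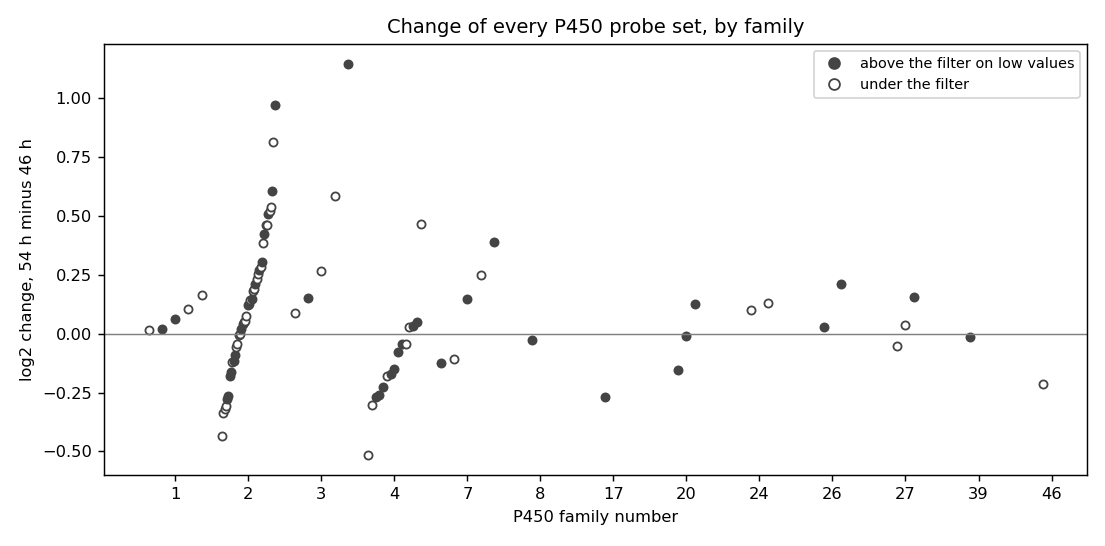
The log2 change from 46 h to 54 h of all 86 P450 probe sets (vertical axis) is plotted by family number (horizontal axis), with filled points above the filter on low values and open points under it. Families 2 and 3 reach furthest above 0 (Cyp2c50 at 0.97 and Cyp3a11 at 1.15), while most of the 15 points of family 4 lie below 0.

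The Cyp2c subfamily, enzymes that oxidise drugs and turn arachidonic acid into epoxides, held 5 of the 14 probe sets whose 54 h arrays were wholly higher. Among all probe sets 6.52% were wholly higher. Of the 11 Cyp2c probe sets, 1 for each gene, 10 had a log2 change above 0, against 46.7% of all probe sets. With 54 h higher, 5 had an unadjusted limma p under 0.05, against 4.34% of all probe sets tested. Of these 5, Cyp2c50 and Cyp2c70 were tested only through their 54 h arrays. The median log2 change of the 11 was 0.30. Taken array by array, their median difference from the 46 h mean was 0.09, -0.10 and -0.04 at 46 h (replicates 1, B, C) against 0.29, 0.29 and 0.45 at 54 h. All 3 arrays of 54 h thus contributed. Probes of related Cyp2c genes may detect each other's transcripts, which was not checked, so single Cyp2c values are uncertain as to the gene.

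Cyp2c50 came nearest to the threshold after Cyp3a11. It measured 125, 96.5 and 133 units at 46 h and 245, 271 and 223 at 54 h, with every 54 h array above every 46 h array. All its 46 h arrays were under the filter level of 139 units, so it was tested only through the time at which it was high. The log2 change was 0.97 ± 0.15 (SE; limma adjusted p = 0.0542). It passed the threshold when arrays were centred on their medians (limma adjusted p = 0.0471) and in the robust form of the model (0.0342), and its limma adjusted p was 0.0727 to 0.231 when each array was left out in turn. Cyp2c37, whose promoter stretch is printed above with that of Cyp2c50, was under the filter at 106, 86.5 and 91.0 units at 46 h and 211, 168 and 157 at 54 h. Its arrays did not overlap either, and its log2 difference was 0.81 with no test.

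Cyp2c29 measured 473, 446 and 318 units at 46 h and 583, 512 and 604 at 54 h (log2 change 0.46 ± 0.15 SE; limma adjusted p = 0.348). Cyp2c70 measured 133, 115 and 126 units and then 149, 196 and 176 (0.43 ± 0.14; limma adjusted p = 0.338). Cyp2c68 measured 341, 337 and 278 units and then 387, 386 and 413 (0.30 ± 0.12; limma adjusted p = 0.431). Cyp2c70 was tested only through its 54 h arrays, since all its 46 h arrays were under the filter level. In these 3 genes the times did not overlap, the highest array being 54 h replicate C for Cyp2c29 and Cyp2c68 and 54 h replicate B for Cyp2c70. Cyp2c38 measured 212, 174 and 108 units and then 213, 199 and 372 (0.61 ± 0.27; limma adjusted p = 0.492). Here the times overlapped, and 54 h replicate C stood apart from the rest. The other Cyp2c genes above the filter had log2 changes of 0.12 (Cyp2c23), 0.15 (Cyp2c55), 0.21 (Cyp2c39) and 0.27 (Cyp2c54), all with overlapping arrays.

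**Figure D2:**
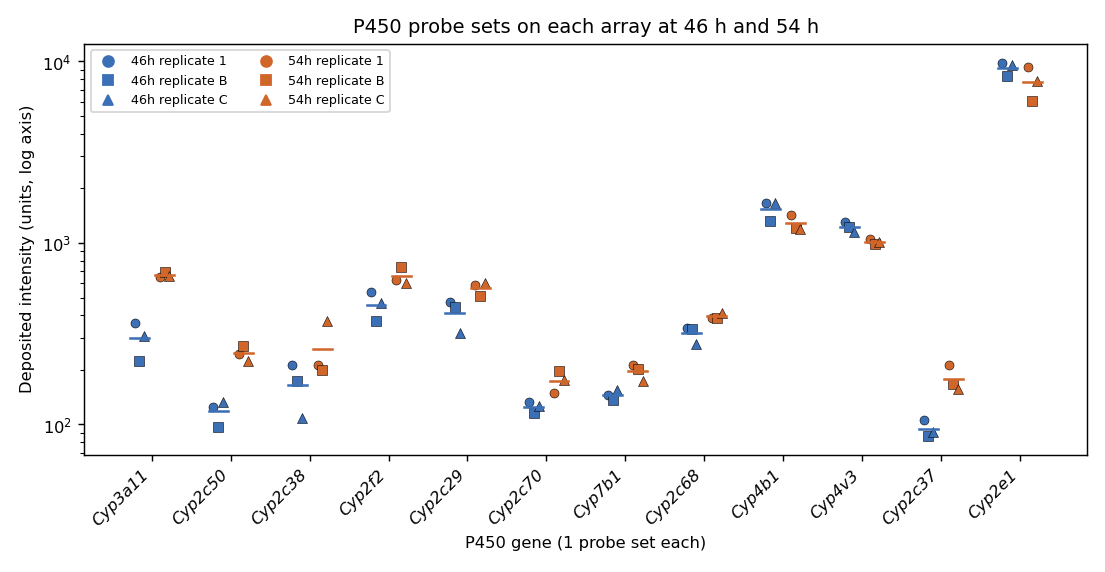
Intensity (vertical log axis) of the 10 P450 probe sets with an unadjusted limma p under 0.05 and of Cyp2c37 and Cyp2e1 is plotted gene by gene, each point 1 array (colour, time; shape, replicate) with a bar at the mean of 3. Cyp3a11 and Cyp2c50 show 54 h points wholly above the 46 h points, whereas the points of Cyp2e1 and Cyp4b1 overlap.

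Of the other enzymes of foreign compounds, Cyp2f2, known for oxidising naphthalene in airway and liver, measured 537, 372 and 464 units at 46 h and 624, 738 and 599 at 54 h. All 54 h arrays were higher, replicate B most (log2 change 0.51 ± 0.15 SE; limma adjusted p = 0.286). Cyp2e1, which oxidises ethanol and other small molecules, measured 9852, 8280.0 and 9601 units and then 9282, 6069 and 7803. The times overlapped, and replicate B was lowest at each time (-0.28 ± 0.13; limma adjusted p = 0.521). Without 54h replicate B the log2 change was -0.11 and without 54h replicate 1 it was -0.42. Cyp1b1, which hydroxylates oestrogens and polycyclic hydrocarbons, measured 1951, 1434 and 1921 units and then 2090.4, 1713 and 1706. Its times overlapped, with a log2 change of 0.06 ± 0.13 (limma adjusted p = 0.915). Cyp1a1, the classical gene induced through the aryl hydrocarbon receptor, was under the filter, at 37.2, 55.0 and 65.1 units and then 59.0, 51.5 and 59.4.

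In the 3A subfamily all 5 probe sets had a log2 change above 0, against 46.7% of all probe sets. The median of the 5 was 0.27. Their median difference from the 46 h mean was 0.28, -0.33 and -0.03 at 46 h (replicates 1, B, C) and 0.44, 0.53 and 0.47 at 54 h. Cyp3a16 stood at 3.27 to 20.8 units and Cyp3a44 at 0.40 to 15.7 over the 6 arrays, so their signs are uncertain. Only Cyp3a11 and Cyp3a13 (0.15 ± 0.18 SE) were above the filter. Cyp3a25 was under it and did not overlap between the times, at 58.3, 52.8 and 34.5 units and then 70.4, 76.2 and 93.2. Cyp2d9 and Cyp2d10, also under the filter, did not overlap either, with log2 differences of 0.54 and 0.46. A probe set of Cyp2d13 went the other way, with a log2 difference of -0.43 and 54 h lower on every array. The remaining tested genes of this role with a single probe set were Cyp2d40 (0.02) and Cyp2s1 (-0.26), both with overlapping arrays.

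Family 4, which oxidises fatty acids and eicosanoids such as leukotriene B, leaned to lower values at 54 h without a member past the adjusted test. Of its 15 probe sets, 4 had a log2 change above 0 (46.7% of all probe sets did), and the median was -0.15. Array by array the median difference from the 46 h mean was 0.05, -0.07 and 0.10 at 46 h and -0.12, -0.09 and -0.08 at 54 h. Cyp4b1, which hydroxylates fatty acids and activates some plant toxins, measured 1656, 1322 and 1650.2 units at 46 h and 1429, 1215 and 1201 at 54 h. The times overlapped through 46 h replicate B and 54 h replicate 1 (log2 change -0.26 ± 0.11 SE; limma adjusted p = 0.482). The log2 changes of the other genes of the family with 1 probe set above the filter were -0.23 for Cyp4a31, -0.15 for Cyp4f13, -0.08 for Cyp4f14 and -0.17 for Cyp4f18, each with overlapping arrays. Cyp4a14, a gene induced through the fatty acid receptor PPAR alpha in liver, was far under the filter, at 11.9, 8.03 and 13.2 units and then 21.8, 19.7 and 22.2. Its arrays did not overlap.

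Cyp4v3, the mouse counterpart of a human fatty acid hydroxylase of the eye, gave different answers from its probe sets. The lower-signal one measured 1305, 1229 and 1145 units at 46 h and 1046, 986 and 1007 at 54 h, with all 54 h arrays lower (log2 change -0.27 ± 0.09 SE; limma adjusted p = 0.335). Its brighter counterpart measured 2040.2, 1984 and 2229 units and then 2382, 1972 and 2065, with overlapping times (0.03 ± 0.09; limma adjusted p = 0.929). A direction for this gene therefore depends on the probe set. Cyp2j6 and Cyp2j13, of a subfamily that makes epoxides of arachidonic acid, had log2 changes of -0.11 and -0.09 at their brightest probe sets. Both probe sets of Cyp2u1, a hydroxylase of long-chain fatty acids, were under the filter, at 95.6 to 118 units and at 66.1 to 105 units over the 6 arrays.

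Among the P450s of sterols and bile acids, Cyp7b1, which hydroxylates oxysterols and dehydroepiandrosterone, had the largest value. Its lower-signal probe set above the filter measured 145, 137 and 155 units at 46 h and 212, 201 and 174 at 54 h, without overlap (log2 change 0.39 ± 0.13 SE; limma adjusted p = 0.340). The brighter one measured 264, 229 and 269.7 units and then 284, 301 and 264, with overlap (0.15 ± 0.12; limma adjusted p = 0.721). Cyp27a1, the mitochondrial sterol hydroxylase, measured 840, 792 and 864 units and then 901, 917 and 963. All its 54 h arrays were higher, by a small margin (0.15 ± 0.09; limma adjusted p = 0.593). Cyp7a1, the rate-limiting enzyme of bile acid synthesis, had a log2 change of -0.13 at its probe set above the filter and 0.25 at the one under it. Cyp8b1, needed for cholic acid, had -0.03, and Cyp39a1, an oxysterol hydroxylase, -0.01. Their arrays overlapped. Cyp46a1, the cholesterol hydroxylase of brain, was under the filter.

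The retinoic acid hydroxylases Cyp26a1 and Cyp26b1 were both above the filter. Cyp26b1 measured 513, 551 and 513 units at 46 h and 572, 613 and 648 at 54 h. The times did not overlap (log2 change 0.21 ± 0.10 SE; limma adjusted p = 0.521), while those of Cyp26a1 did (0.03 ± 0.12; limma adjusted p = 0.959). The vitamin D enzymes Cyp2r1, Cyp24a1 and Cyp27b1 were under the filter on all 4 of their probe sets. Cyp20a1, an enzyme without a settled substrate, measured 2114, 2158 and 2367 units and then 2598, 2305 and 2352.0 on its brightest probe set, with overlapping times (0.13 ± 0.08; limma adjusted p = 0.620).

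Cyp17a1, which opens the route to sex steroids and cortisol and is little used by the adult mouse adrenal, measured 199, 163 and 155 units at 46 h and 111, 169 and 144 at 54 h. It was above the filter but below the 95th percentile of olfactory receptor probe sets, and its times overlapped (log2 change -0.27 ± 0.17 SE; limma adjusted p = 0.625).

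Agreement between probe sets could be read for few genes. A single probe set stood for each of 50 genes, 12 genes had 2 and 4 genes had 3. Of the 16 genes with more than 1, 7 had at least 2 above the filter. The sign was shared in 3 of those (Cyp1b1, Cyp2j6 and Cyp7b1) and differed in 4 (Cyp20a1, Cyp2d22, Cyp4f16 and Cyp4v3). The gap between the highest and lowest log2 change of these 7 genes was 0.20 at the median and ran from 0.04 to 0.30. In Cyp2d22 the values were -0.16 ± 0.09 and 0.04 ± 0.09 (SE), in Cyp4f16 0.05 ± 0.13 and -0.04 ± 0.14, in Cyp2j6 -0.11 ± 0.15 and -0.18 ± 0.17, and in Cyp1b1 0.06 ± 0.13 and 0.02 ± 0.16. In Cyp20a1 the 3 probe sets gave 0.13, -0.01 and -0.15.

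**Figure D3:**
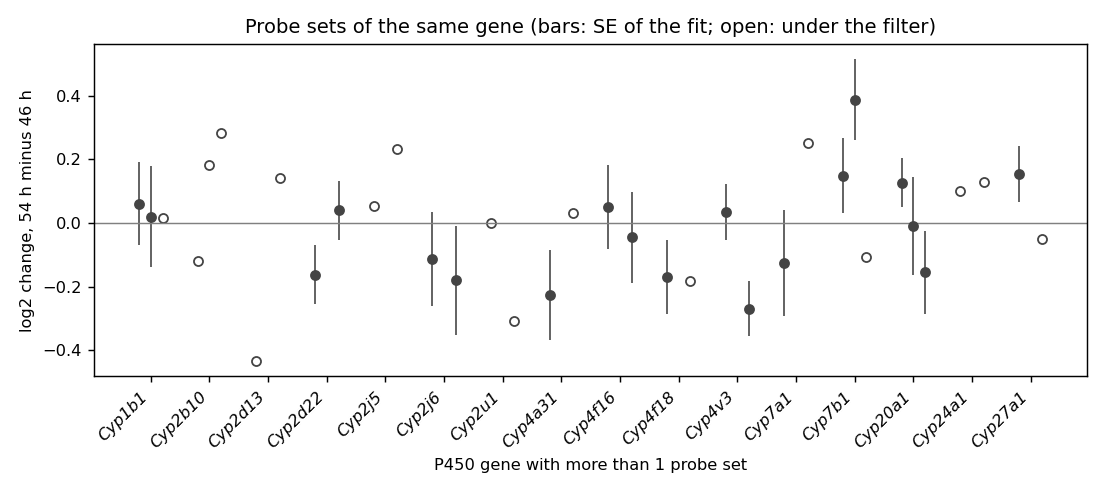
For each of the 16 P450 genes with more than 1 probe set (horizontal axis), the log2 change of each probe set is plotted (vertical axis), with the SE of the fit as a bar for those tested and open points under the filter. The points of Cyp4v3 and Cyp20a1 fall on both sides of 0, while both tested points of Cyp7b1 lie above it.

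The receptors that induce P450 genes had changes on both sides of 0. Of 16 listed, 15 were measured and above the filter, and 0 passed limma at an unadjusted p of 0.05 in either direction (0 after Benjamini-Hochberg adjustment), with a median log2 change of -0.06. Over all probe sets tested, 4.34% were higher and 5.75% lower at that unadjusted threshold. The pregnane X receptor gene Nr1i2, which induces Cyp3a11, had a log2 change of -0.07 ± 0.18 (SE). The constitutive androstane receptor gene Nr1i3, an inducer of Cyp2b and Cyp2c genes, had -0.15 ± 0.13, and the aryl hydrocarbon receptor gene Ahr 0.08 ± 0.14. For Ppara, which induces Cyp4a genes, all 54 h arrays were lower (-0.19 ± 0.09; limma adjusted p = 0.532). For Rxra all 54 h arrays were higher (0.11 ± 0.09, limma adjusted p = 0.735). These were the only receptor genes of the list without overlap, 1 in each direction. Among all probe sets 6.52% were wholly higher and 7.72% wholly lower. Hnf4a, the liver regulator whose letters are marked above, ranged widely within each time, at 658, 1071 and 205 units and then 675, 384 and 962.

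P450 enzymes also need electron donors and haem. Of 16 such genes listed, 14 were measured and above the filter; at an unadjusted limma p of 0.05, 1 was higher and 5 lower, with a median log2 change of -0.12; over all probe sets tested the shares were 4.34% and 5.75%. The cytochrome b5 gene Cyb5a fell by 0.35 on the log2 scale (limma adjusted p = 0.0314), the only call in the list. The others at an unadjusted p of 0.05 did not pass the adjusted test (limma adjusted p of 0.134 to 0.463). They were the haem-making enzymes Fech (-0.27 ± 0.06 SE) and Urod (0.27 ± 0.06), the b5 reductase Cyb5r1 (-0.26 ± 0.09), the second b5 gene Cyb5b (-0.12 ± 0.05) and the haem-binding Pgrmc1 (-0.12 ± 0.03). Por and Fdxr, the main electron donors of microsomal and mitochondrial P450s, were not analysed here.

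Further lists cover enzymes next to the P450s. For comparison, 4.34% of all probe sets tested were higher and 5.75% lower at an unadjusted limma p of 0.05. Of 12 genes of eicosanoid and epoxide metabolism, 11 were measured, 10 were above the filter, and 1 was lower at an unadjusted limma p of 0.05: Ephx1, which hydrolyses the epoxides P450s make (-0.14 ± 0.04 SE). Of 12 genes of retinoic acid supply, which feed Cyp26 its substrate, 10 were measured and 8 above the filter. The retinaldehyde dehydrogenases Aldh1a1 (0.09 ± 0.03) and Aldh1a2 (0.24 ± 0.08) were higher at an unadjusted limma p of 0.05, and the alcohol dehydrogenases Adh1 (-0.25 ± 0.05) and Adh7 (-0.36 ± 0.10) lower. None passed the adjusted test.

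Liver markers stood higher at 54 h, the same direction as the Cyp2c and Cyp3a values. All 15 listed liver markers were measured, and none was at 0. Of the 15, 14 had a log2 change above 0 (46.7% of all probe sets did). The times did not overlap in 13, all higher at 54 h (6.52% of all probe sets). Their summed level was 4519 to 6822 units at 46 h and 9224 to 13749 at 54 h. Array by array their median difference from the 46 h mean was 0.16, -0.27 and 0.16 at 46 h and 0.64, 1.14 and 0.78 at 54 h, lowest on 46 h replicate B, as for Cyp3a11, and highest on 54 h replicate B. The part of these markers in the P450 differences was not tested. In whole-gland RNA, a different number of cells of a type and a different amount of RNA per cell cannot be told apart.

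The other tissue lists varied in direction. The summed level of 10 kidney markers, none at 0 and 3 of them above the filter, was 2691 to 2788 units at 46 h and 2727 to 3198 at 54 h. Of the 10, 9 had a log2 change above 0 (46.7% of all probe sets did), and 1 was wholly higher at 54 h (6.52% of all probe sets). Array by array their median difference from the 46 h mean was 0.004, 0.02 and -0.08 at 46 h and 0.13, 0.09 and 0.19 at 54 h. The summed level of the 6 measured of 8 fat markers, none at 0, was 14909 to 19389 units and then 17109 to 22474. The median log2 change of the fat list was 0.33. Ucp1 (0.56), Cidea (0.67) and Lep (0.59) had 54 h arrays wholly higher (6.52% of all probe sets did), while the fat cell hormone gene Adipoq had -0.11 with overlap. As for Cyp2e1, replicate B was lowest at each time in 4 of the 6 (Adipoq, Retn, Cidea and Cidec) and not in Ucp1 or Lep. The part of fat in the Cyp2e1 values was not tested. Of 4 red cell markers, 3 were measured, none at 0, and summed to 1245 to 1684 units at 46 h and 1747 to 2199 at 54 h, without overlap. Among them the beta-globin gene Hbb-b2 rose by 1.04 on the log2 scale (limma adjusted p = 0.0288), and Alas2 had 0.54. The alpha-globin gene Hba-a1 went the other way, at -0.30 with overlapping arrays. The 6 macrophage markers summed to 22321 to 22984 units and then 20603 to 21020, and the 5 endothelial markers to 10534 to 11924 and then 9952 to 10488. Both sums were lower at 54 h without overlap, but the single genes did not fall together. Much of the macrophage sum came from Cd74, at 9824 to 10305 units at 46 h. Of the macrophage markers, 3 had a log2 change above 0 and 3 below, and only Cd74 and Lyz2 were lower on every 54 h array. Of the endothelial markers, 1 was above 0 and 4 below, and only Kdr was lower on every 54 h array. Among all probe sets 7.72% were wholly lower at 54 h. The part of these cells in the P450 values was not tested. Adrenal cortex markers summed to 78166 to 82681 units and then 74438 to 82601, with overlap.

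**Figure D4:**
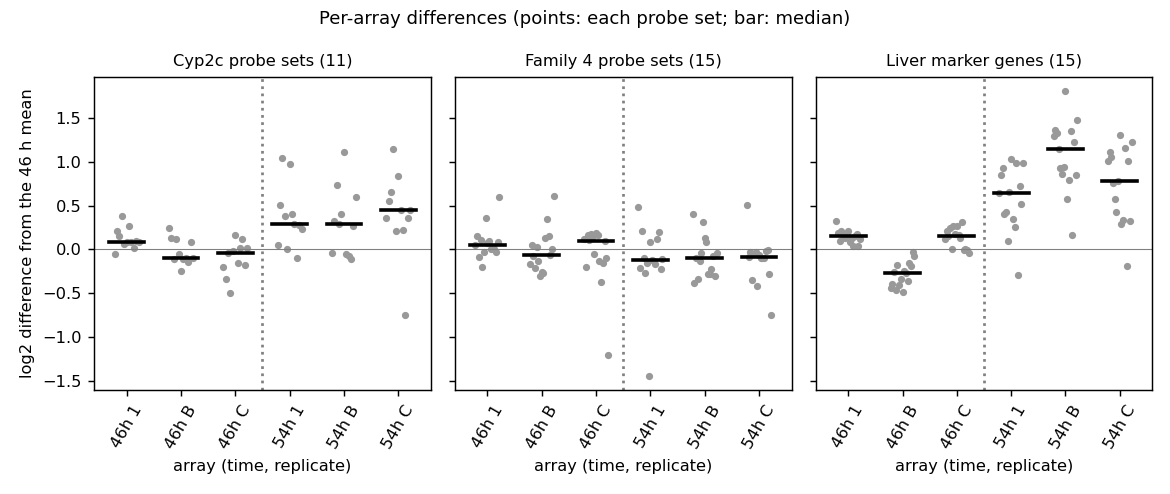
Each panel plots, for the 6 arrays (horizontal axis), the log2 difference of every probe set of a group from its own 46 h mean (vertical axis), with points for probe sets and a bar for the median. The medians of the Cyp2c group lie at 0.29 to 0.45 on the 54 h arrays, those of family 4 between -0.12 and -0.08, and those of the liver markers between 0.64 and 1.14.

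Short motif letters were counted in the promoter windows on both strands as a description. The HNF4-type letters CAAAGTCCA occurred in 6 of the 50 member genes with a window (12%): Cyp2c65, Cyp2c68, Cyp2c70, Cyp3a11, Cyp3a16 and Cyp8b1. They occurred in 0.475% of all 32851 windows, which belong to 27025 genes. Members were counted by gene and the background by window, so the 2 shares are in unlike units for every motif. Of the 6 genes with these letters, Cyp3a11, Cyp2c68 and Cyp2c70 had 54 h arrays wholly above those of 46 h. Of all 50 member genes with a window, 12 had such a probe set, against 6.52% of all probe sets. Cyp2c65 and Cyp3a16 were under the filter, and Cyp8b1 had a log2 change of -0.03. The FOXA letters TGTTTAC were in 6 member genes (12%) and 3.65% of all windows, and the TATA box letters TATAAA in 21 (42%) and 13.6%. The letters GCGTG, the core recognised by the aryl hydrocarbon receptor, were in 13 member genes (26%) and 32.4% of all windows. The consensus of HNF1, with 1 free base, and the C/EBP letters TTGCGCAA were in 0 of the 50 windows and in 0.399% and 0.183% of all windows. Windows of neighbouring Cyp2c genes share sequence, as the printed pair shows, so these counts are not independent.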

How the data were processed

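The values, as the authors deposited them, are linear intensities from an Affymetrix mouse array, with 1 value for a probe set on each array; the summarisation and normalization methods are not given in the sources used here. From 45001 probe sets, 64 controls, 1 without values and 1 with a damaged value were left out. Names came from the platform annotation (34848 probe sets with 1 gene, 928 with several, 9159 with none); the gene IDs of all 86 members were in RefSeq GRCm38.p6, with 0 symbols changed. Values were taken as log2(intensity + 16), which understates changes of dim probe sets. Probe sets above the 40th percentile of the mean (26961) were compared, 54 h minus 46 h, in limma 3.58.1 under R 4.3.3 (trended eBayes, two-sided, Benjamini-Hochberg over all tested, threshold 0.05). For lists, a gene was represented by its brightest probe set. The procedure was tested on simulated data. Member genes were named with every array's value where an unadjusted p was under 0.05 or they were on a short list, and otherwise with their change; Cyp2c37, Cyp3a25 and Cyp4a14, and the named genes under the filter that did not overlap, were singled out after their values were seen. Members, lists and this rule were chosen with earlier results of these data known. Alternatives were quantile normalization, median centring, other filters and offsets, other eBayes forms, the replicate letter as a block, the mean over probe sets, and leaving out each array. Python 3.11.15 and matplotlib 3.10.9 made tables and plots.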

Additional observations from a re-analysis of the deposited data

How the results depend on the processing

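The number of member probe sets past the adjusted limma threshold was 1; it was 2 with median centring, 2 with the robust form, and 0 without the filter or without the trend, and 0 to 1 when each array was left out (members at an unadjusted limma p of 0.05 then numbered 7 to 11, against 10, with 6 to 8 higher and 0 to 3 lower); the median log2 change of the member genes, 0.05, then ran from 0.027 to 0.084. At the 60th percentile 6 members had an unadjusted p under 0.05. Over all probe sets 31 were called, against 47 with quantile normalization, 50 with centring, 48 at the 60th percentile, 3 without the trend, 61 in the robust form and 2 to 65 with an array left out. With the replicate block the calls were 1 member and 45 probe sets in all, and 9 members had an unadjusted limma p under 0.05. Deviations of same-lettered arrays from their group means had correlations of -0.06, -0.41 and -0.49. Array-wide differences also enter these correlations, so they cannot decide whether the letters pair arrays. The labels state no pairing. The number of expressed genes, 35, was 19 at the 60th percentile and 14 above the olfactory receptor level. Of 420 values for 27 member probe sets, 398 kept direction and call, 7 lost the call (Cyp3a11), 2 gained one (Cyp2c50) and 13 changed sign, none of them for these 2 genes. With an array left out, the log2 change ran from -0.082 to 0.14 and from -0.15 to 0.13 for the Cyp1b1 probe sets, from -0.25 to 0.018 for the brighter Cyp2j6 one, from -0.076 to 0.14 and from -0.18 to 0.039 for Cyp4f16, from -0.044 to 0.091 for the brighter Cyp4v3 one and from -0.15 to 0.13 for a Cyp20a1 one, which was 0.014 with quantile normalization and 0.018 with centring. The causes were not tested. The filter on mean intensity was added after seeing the data. Dim members near background and 3 arrays a group limit the precision.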
